A study of Mus musculus with 16 samples.

Results

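This comparison set the annulus fibrosus of the mouse tail at postnatal day 28 (P28) against the same tissue at postnatal day 14 (P14), over all genes of the deposited table. It used 8 of the 16 libraries of the study, 4 of each age, and the 4 libraries each of P5 and P21 shared the estimate of the spread and are quoted beside the results. The mice of every group were wild-type C57BL/6, with no treatment or transgene named, so the labels separate the groups by age alone. Each library was made from pooled tissue of 2 to 3 mice of both sexes that gave 10 discs each, and the protocol states that the nucleus pulposus and the endplates were removed. Ribosomal RNA was depleted and read pairs of 150 bases were sequenced. The authors deposited counts scaled by library size factors, called normalised reads below. Of the 17724 genes listed, 17577 whose mean reached 10 were tested with limma on log2(value + 1), and a gene was called at a Benjamini-Hochberg adjusted p under 0.05. Values listed for an age are in the order of replicates 1 to 4, errors of log2 changes are standard errors, and n = 4 libraries per age. The labels do not say whether pools of one age came from separate litters, so p-values measure only the spread between these pools, which may be partly technical.

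The annulus fibrosus is the lamellar outer ring of the intervertebral disc. Its outer part is a fibrous, tendon-like tissue rich in type I collagen, and its inner part is a fibrocartilage that also holds type II collagen and aggrecan. In the weeks after birth the vertebrae beside it ossify and grow through their growth plates, and growth of the body slows as a set of growth-promoting genes, many of them imprinted, is turned down in many organs. Osteoclasts are the multinucleated cells that resorb bone and calcified cartilage, osteoblasts lay down bone matrix, and osteocytes are osteoblasts that have become embedded in it.

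The 8 libraries differed in more than age. P14 libraries held 10549937 to 23719004 reads and P28 libraries 20263292 to 24782845, so the shallowest were at P14. Gm26917, a transcript with sequence like ribosomal RNA, took 9.05% and 8.05% of the reads in P14 replicates 3 and 4, against 3.91% and 2.43% in P14 replicates 1 and 2 and 1.71% to 2.32% at P28. Mitochondrially encoded genes took 14.97% and 10.6% of the reads in the same 2 libraries and 2.00% to 3.71% in the other 6. Although every pool is labelled as both sexes, Xist, expressed from the inactive X, was at 528 normalised reads in P14 replicate 3 and 141 in P28 replicate 4, and the Y-linked Kdm5d was at 11.5 in P14 replicate 4, while the other 5 libraries had 3817 or more of Xist and 206 or more of Kdm5d. Snap25, a gene of nerve terminals, was at 269 in P14 replicate 2 and at 31.99 in P28 replicate 4, and at 7.88 or less in the other 6. Correlations of log2 values were 0.9199 to 0.9685 within P14, 0.9616 to 0.9743 within P28 and 0.911 to 0.9572 between the ages, and every pair within an age differed by a chi-square of 28.4 or more per gene, above sampling noise. The labelled tissue was checked on its markers. Col1a1 lay at 1866762 or more and Col2a1 at 1171838 or more normalised reads in each of the 8 libraries, Scx at 2792 or more and Tnmd at 2183 or more.

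Between P14 and P28, 390 genes rose and 235 fell, together 625 of the 17577 tested (3.56%, of which 2.22% rose and 1.34% fell). The median called change was 1.10 upward and -1.38 downward on the log2 scale, against a median of -0.0067 over all genes tested. In 595 of the 625, every library of one age lay beyond every library of the other. Such a separation was present in 2170 of the 17577 genes whatever their p (12.3%, 7.43% higher and 4.92% lower at P28). Rescaling the libraries to the same total gave 402 higher and 140 lower calls, so the 62.4% of calls that were increases depends on the scaling. On the recovered reads, edgeR called 592 genes (3.37%, of which 2.09% rose and 1.28% fell) and DESeq2 1325 (7.54%, of which 4.28% rose and 3.25% fell). In bulk tissue, fewer cells of a type and less RNA per cell cannot be told apart, which holds for every change below.

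Many calls were lost when libraries were left out. Leaving out 1 library gave from 129 higher genes (without P28 replicate 1) to 462 (without P14 replicate 2) and from 85 lower genes (without P14 replicate 4) to 262 (without P14 replicate 2). Without P14 replicates 3 and 4, the pair with high Gm26917, 29 genes were higher (0.165%) and 40 lower (0.228%), together 0.393%, with 29 of the 390 and 38 of the 235 still called. All 390 and all 235 kept their sign in that fit, 384 and 233 had an unadjusted p under 0.05, and the median changes were 1.02 and -1.24. With the log2 share of Gm26917 as a covariate, 35 genes were higher (0.199%) and 47 lower (0.267%), together 0.467%. Leaving out P14 replicates 3 and 4 and P28 replicate 4, the pools with little transcript of 1 sex, left 18 higher and 27 lower. Whether RNA quality or sex mixture has a part in the changes was not tested beyond these fits. Of the genes named here by rule or followed throughout, 88 were called, 36 of them kept their call in each of the 8 fits without 1 library, and none of the 88 changed sign in any alternative. A fit without 1 library lost from 9 of the 88 calls (P14 replicate 2) to 45 (P14 replicate 4). The plot of fold change against adjusted p shows where the gene groups lie.

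**Figure D1:**
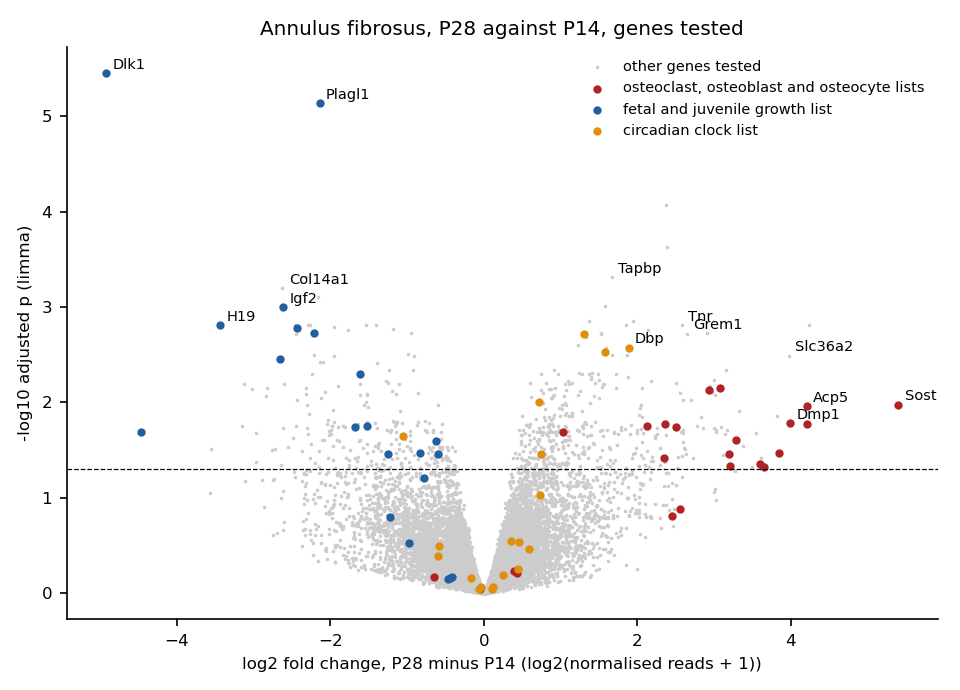
Log2 fold change, P28 minus P14, on the x axis against -log10 of the limma adjusted p on the y axis for the 17577 genes tested; each point is a gene, coloured for 3 gene lists, and the dashed line is an adjusted p of 0.05. Genes of the growth list (blue) lie to the left of 0 and most genes of the osteoclast, osteoblast and osteocyte lists (red) lie far to the right.

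A group of growth genes active before and soon after birth fell together. The list holds imprinted growth regulators and fetal RNA-binding and chromatin proteins. Of its 21 tested members 15 fell, 0 rose and 6 did not pass the test, against 1.34% of all genes that fell. This list, like the others below, was written with earlier results of these data known, so such shares are descriptions. edgeR called 14 lower and DESeq2 17. Its median change was -1.52, and all 21 changes were negative. The other members called beside those described next were Plagl1 (-2.14 ± 0.17), Hmga2 (-2.21 ± 0.32), Peg3 (-1.61 ± 0.27), Meg3 (-1.68 ± 0.36), Peg10, Mdk, Grb10, Igf2bp2, Igf2bp3 and Magel2, while Gpc3, Ndn, Mycn, Igf2bp1, Ptn and Slc38a4 did not pass the test. With P14 replicates 3 and 4 left out, 8 of the 21 were called and the median was -1.68. With the Gm26917 covariate 8 were called, and without the pools with little transcript of 1 sex 6. Leaving out 1 library gave 8 (without P28 replicate 3) to 15 calls, and 9 without P14 replicate 4.

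Dlk1, a paternally expressed Notch-like membrane protein of immature mesenchymal and endocrine cells, had the smallest adjusted p of the growth genes. It lies on chromosome 12, 109452823 to 109463336 (GRCm38). Its levels in normalised reads were 712, 367, 388 and 639 at P14 and 29.1, 24.9, 8.88 and 9.02 at P28. Every P28 library was below every P14 library, and Dlk1 fell by 4.92 ± 0.35 on the log2 scale (adjusted p = 3.53e-06). It had been at a mean of 5086 ± 1203 (SD, n = 4) at P5, and was at 163, 129.6, 91.2 and 176 at P21.

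H19 and Igf2 are neighbouring imprinted genes on chromosome 7. H19 is a maternally expressed long non-coding RNA, and Igf2 encodes a fetal growth factor of the insulin family. H19 (ENSMUSG00000000031, chromosome 7, 142575529 to 142578143) was at 54084, 16948, 29696 and 33638 at P14 and 5677, 3844, 1308 and 2311 at P28, a fall of 3.44 ± 0.47 (adjusted p = 0.00154). Igf2 (ENSMUSG00000048583, chromosome 7, 142650766 to 142666816) was at 87502, 32562, 39713 and 45321 at P14 and 10048, 9421, 7222 and 5363 at P28, a fall of 2.61 ± 0.33 (adjusted p = 0.00101). In both genes P14 replicate 1 was the highest of the 8 libraries and the 2 ages did not overlap. 64.5% of the exon bases of Igf2 also belong to the annotated transcript Gm49394 and 9.15% of those of H19 to Mir675. The strand setting of the counting is not given in the sources used here, so reads of overlapping genes cannot be assigned to one of them with certainty.

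Cdkn1c, the imprinted cell cycle inhibitor p57, was at 3729.9, 2464, 1596 and 4222 at P14 and 595, 679, 286 and 618 at P28 and fell by 2.44 ± 0.34 (adjusted p = 0.00167). Mest, a paternally expressed hydrolase-like gene, was at 3935, 1810.1, 1332 and 1298 at P14 and 489.7, 359.9, 172 and 258 at P28. That is a fall of 2.65 ± 0.42 (adjusted p = 0.0035), with no overlap between the ages. Outside the list, Nrk, an X-linked kinase known from placenta and embryo, was at 3305, 1635, 1753 and 2540.4 at P14 and 552, 503, 337 and 405 at P28 and fell by 2.32 ± 0.27 (adjusted p = 0.00049). Dlk1, H19, Igf2, Mest, Cdkn1c and Nrk kept their call in each fit without 1 library and without P14 replicates 3 and 4, as did Plagl1 in the latter (-2.14 over all libraries and -2.13 without those 2). H19 holds the precursor of a microRNA, miR-675, within its exon, and whether reads of that stretch were counted for H19 is not known. The mature forms were not measured in these libraries. They are shown with the seed, bases 2 to 8, in capitals, as RefSeq gives them on GRCm38.p6.
mmu-miR-675-5p: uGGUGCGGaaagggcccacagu
mmu-miR-675-3p: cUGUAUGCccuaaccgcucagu
The arms have different seeds.

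**Figure D2:**
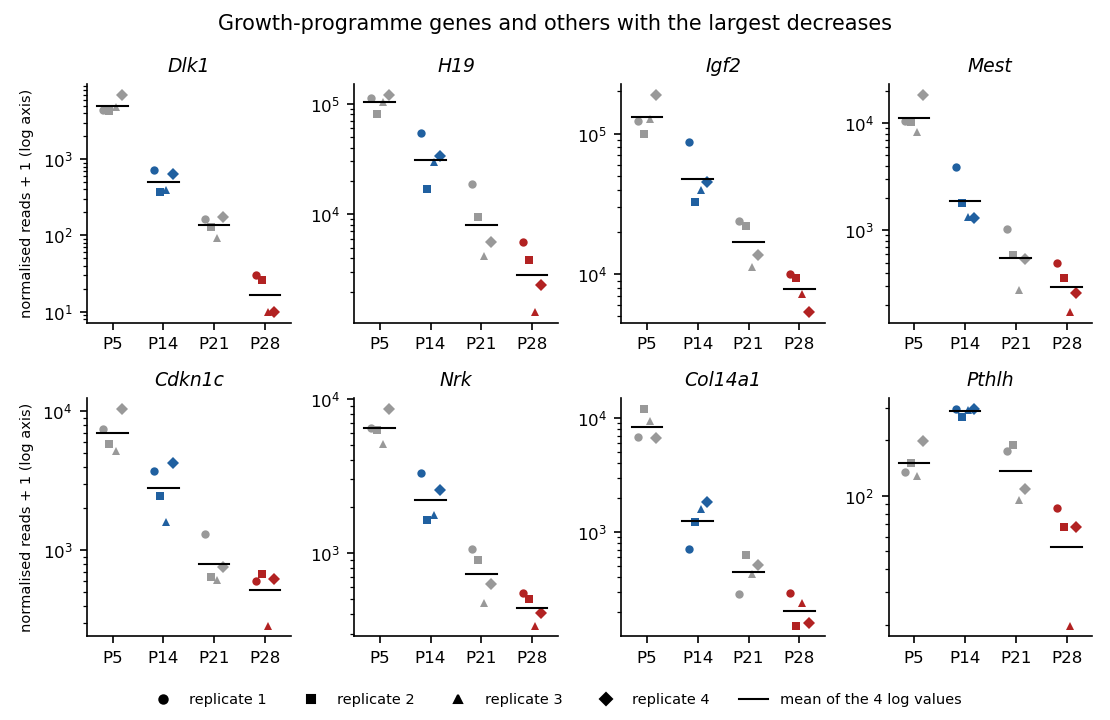
Normalised reads + 1 on a log axis for 8 genes at P5, P14, P21 and P28; each symbol is a library, its shape the replicate, and the bar the mean of the 4 log values. P28 libraries (red) lie below all P14 libraries (blue) for each of these genes, and replicate 1 of P14 is the highest P14 library for Dlk1, H19, Igf2, Mest and Nrk.

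Several decreases outside that list were of similar size. Mycl, a transcription factor of the Myc family, was at 232, 178, 47.3 and 147 at P14 and 16.4, 26.3, 9.86 and 12.3 at P28 and fell by 3.02 ± 0.54 (adjusted p = 0.00728). Col14a1, a collagen of the fibril-associated class, was at 704, 1212, 1578 and 1827 at P14 and 293, 150.3, 238 and 159.9 at P28 and fell by 2.62 ± 0.31 (adjusted p = 0.000641), with P14 replicates 3 and 4 the highest libraries. Pthlh, the parathyroid hormone-related protein that keeps growth plate chondrocytes from maturing, stood at 295, 267, 289.6 and 296 at P14 and fell to 84.5, 66.7, 18.7 and 66.4 (log2 change -2.45 ± 0.36, adjusted p = 0.0019). Lsamp, a cell adhesion protein known from neurons, was at 153, 141, 219 and 202 at P14 and 27.3, 64.03, 22.7 and 36.1 at P28 and fell by 2.31 ± 0.44. Megf6 was at 400.5, 104, 136 and 93.7 at P14 and 36.3, 52.6, 10.9 and 22.1 at P28 and fell by 2.49 ± 0.57. For Pthlh the P14 libraries lay between 267 and 296. When P14 replicates 3 and 4 were left out, the calls of Mycl, Col14a1 and Pthlh held (-3.66, -2.19 and -2.42), and those of Lsamp (-2.05, adjusted p = 0.14) and Megf6 (-2.92, adjusted p = 0.0959) did not.

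Most osteoclast markers and part of the osteoblast and osteocyte markers rose. Of 11 osteoclast genes tested, 10 rose, 0 fell and Nfatc1 did not pass the test (-0.05 ± 0.17), against 2.22% of all genes, and the median change was 3.21. Of 12 osteoblast and osteocyte genes, 7 rose, 0 fell and 5 did not pass the test, with a median of 2.36. edgeR called 6 of the 11 and 6 of the 12, and DESeq2 8 and 8. With the Gm26917 covariate limma called 0 of either list (10 of 11 and 9 of 12 had an unadjusted p under 0.05), and likewise without the pools with little transcript of 1 sex (9 and 8). The medians were 2.65 and 2.34 with the covariate and 2.28 and 2.17 without those pools. Bglap and Bglap2, the osteocalcin genes, had values of 2.46 ± 0.91 and 2.56 ± 0.89 (adjusted p = 0.156 and 0.13), and Mepe was at -0.65 ± 0.73. Left without P14 replicates 3 and 4, limma called 0 genes of either list (9 of 11 and 8 of 12 had an unadjusted p under 0.05), and the medians were 2.17 and 1.84. When 1 library was left out, the called osteoclast genes numbered 4, 10, 6 and 3 without P14 replicates 1 to 4 in turn and 3, 5, 5 and 6 without P28 replicates 1 to 4. The called osteoblast and osteocyte genes numbered 4, 7, 3 and 1, and 2, 3, 4 and 6. In all 10 called osteoclast genes and 7 called osteoblast and osteocyte genes, all P28 libraries were above all P14 libraries. Such a separation, in either direction, was present in 595 of the 625 called genes. Of all genes tested, 7.43% had every P28 library above every P14 library. Of 14 hypertrophy and mineralisation genes 2 rose (2.22% of all genes), Spp1 and Ank, and 0 fell. The median of that list was 0.12, and -0.50 without P14 replicates 3 and 4. Its members Alpl (0.52 ± 0.54), Sp7 (0.37 ± 0.41) and Ibsp (1.22 ± 0.65) had no call, nor had Runx2 of another list (0.38 ± 0.49).

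Sost encodes sclerostin, the Wnt inhibitor made by osteocytes. It lies on chromosome 11, 101962458 to 101967015 and had 1.82, 18.2, 0 and 0 at P14 and 106, 202, 107 and 73.8 at P28, in normalised reads. It was the largest increase among the genes named by size, 5.40 ± 1.03 on the log2 scale (adjusted p = 0.0106), with 0 reads in 2 of 4 P14 libraries. Dmp1, a matrix phosphoprotein of osteocytes, was at 102, 236, 19.7 and 27.4 at P14 and 1003, 1280.0, 962 and 738 at P28, a rise of 3.99 ± 0.82 (adjusted p = 0.0165). Of the P14 libraries, replicate 2 was the highest for Sost and Dmp1 and replicates 3 and 4 the lowest. Ifitm5, an osteoblast membrane protein, was at 10.01, 22.4, 31.5 and 14.4 at P14 and 116, 127, 81.9 and 71.4 at P28 and rose by 2.36 ± 0.49. Dkk1, another secreted Wnt inhibitor, was at 12.7, 20.7, 0 and 2.88 at P14 and 56.3, 138, 84.8 and 72.2 at P28 and rose by 3.85 ± 0.94.

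Acp5, the tartrate-resistant acid phosphatase of osteoclasts (ENSMUSG00000001348, chromosome 9, 22126727 to 22135711), was at 249, 619, 94.6 and 63.4 at P14 and 6857, 3282, 2928 and 1704 at P28 and rose by 4.21 ± 0.81 (adjusted p = 0.011). Ctsk, the cathepsin that digests bone collagen, was at 466, 1070.5, 262 and 271 at P14 and 5926, 2906, 3519.7 and 1999.7 at P28 and rose by 2.93 ± 0.53 (adjusted p = 0.00735). In both genes P28 replicate 1 was the highest library. Siglec15, a receptor in osteoclast fusion and differentiation, was at 1.82, 9.12, 0 and 1.44 at P14 and 90.8, 57.3, 45.4 and 31.99 at P28 and rose by 4.21 ± 0.88. Itgb3, the integrin subunit by which osteoclasts attach to bone, was at 97.4, 189, 37.4 and 25.95 at P14 and 753, 569, 487 and 469 at P28 and rose by 3.08 ± 0.55 (adjusted p = 0.00701). Dcstamp and Ocstamp, membrane proteins needed for fusion, rose by 3.60 ± 0.94 and 3.65 ± 0.97, Atp6v0d2, a proton pump subunit, by 3.20 ± 0.79 and Mmp9, a gelatinase, by 3.21 ± 0.85. Acp5, Ctsk, Itgb3 and Sost kept their call without any 1 library. The calls of Ocstamp (adjusted p up to 0.141), Dcstamp (up to 0.139), Mmp9 (up to 0.151) and Atp6v0d2 (up to 0.116) did not. In the fit lacking P14 replicates 3 and 4, the changes were 3.05 for Acp5, 2.23 for Ctsk, 2.04 for Itgb3, 3.96 for Sost and 1.47 for Mmp9, with adjusted p = 0.11 to 0.49.

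Other cell types were measured beside these. Macrophage markers, of which Csf1r and Cd68 are shared with osteoclasts, had 2 of 11 called higher, against 2.22% of all genes, with a summed level of 1022 to 1602 at P14 and 1577 to 2457 at P28. Csf1r, the receptor for the growth factor of the lineage, was at 128, 203, 132 and 76.4 at P14 and 719.5, 599, 461 and 399 at P28 and rose by 2.05 ± 0.39, and Cd68 rose by 2.06 ± 0.41. Endothelial markers had 1 of 12 called, Emcn (a rise of 1.47 ± 0.39, adjusted p = 0.0474), a median change of 1.26 and a summed level of 544 to 1647 at P14 and 1525 to 3012 at P28. edgeR called 0 of the 12 (10 had an unadjusted p under 0.05) and DESeq2 7, and limma lost the call of Emcn in 7 of the 8 fits without 1 library (adjusted p up to 0.152). For erythroid markers, whose sums were 1505 to 6478 at P14 and 2039 to 8513 at P28, limma called 0 of 9, edgeR 0 and DESeq2 0, and 0 had an unadjusted p under 0.05. Neutrophil and myeloid precursor markers were at 159.6 to 1123 at P14 and 389 to 1867 at P28 (limma called 0 of 10, edgeR 0 and DESeq2 0, and 1 had an unadjusted p under 0.05). The part of adjoining bone, marrow or vessels in the bone-cell changes was not tested.

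**Figure D3:**
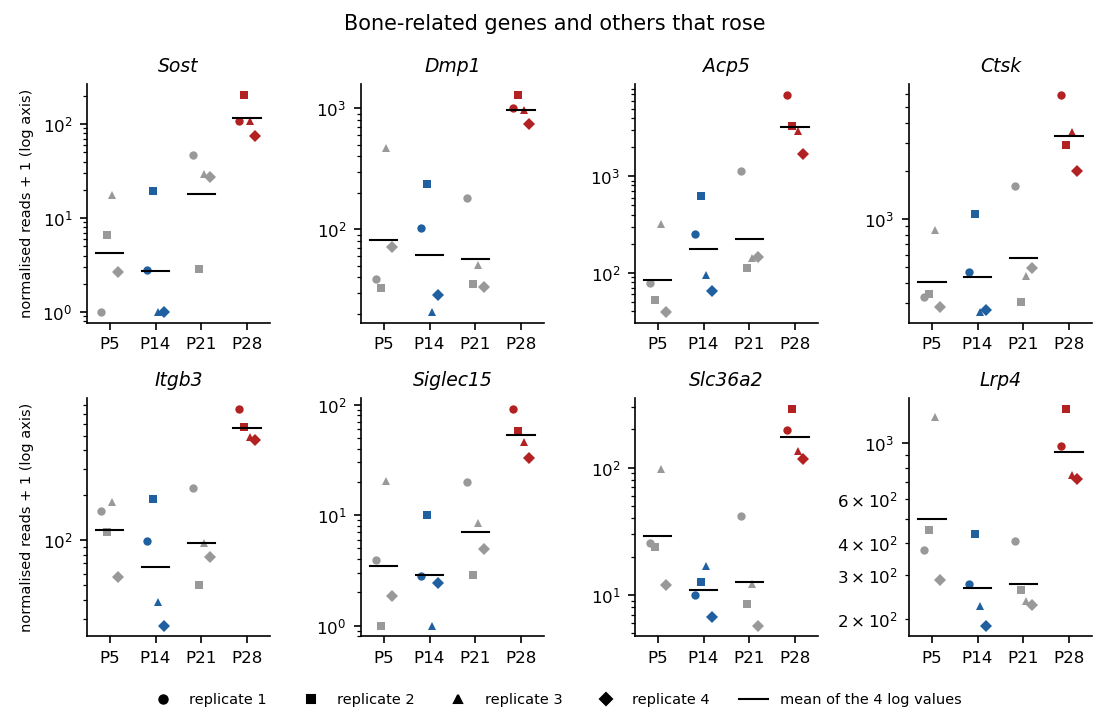
Normalised reads + 1 on a log axis for 8 genes at P5, P14, P21 and P28; each symbol is a library, its shape the replicate, and the bar the mean of the 4 log values. The P28 libraries (red) lie above every P14 library (blue) in all 8 genes, and P14 replicate 2 is the highest P14 library for all but Slc36a2.

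Slc36a2, a proton-coupled amino acid transporter, was at 9.10, 11.6, 15.8 and 5.77 at P14 and 196, 288, 133 and 115 at P28 and rose by 3.98 ± 0.62 (adjusted p = 0.00324). It held its call without P14 replicates 3 and 4 (3.93, adjusted p = 0.0428). Lrp4, a receptor that binds sclerostin, was at 274, 434, 225 and 187 at P14 and 974, 1372, 749 and 723 at P28, a rise of 1.79 ± 0.38 (adjusted p = 0.0182). Col22a1, a collagen known from tissue junctions, was at 56.4, 69.7, 104 and 62.00 at P14 and 760.4, 939.6, 444 and 439.6 at P28 and rose by 3.09 ± 0.66. Chodl and Ptprz1, a lectin-like membrane protein and a receptor phosphatase, rose by 3.38 ± 0.80 and 3.61 ± 0.91. The calls of Lrp4, Col22a1, Chodl and Ptprz1 were lost without P14 replicates 3 and 4 (adjusted p = 0.114 to 0.285), with changes of 1.42 to 3.50.

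The bulk collagens of the annulus were not called. Col1a1 was at 1866762, 3328999, 2300428 and 2347438 at P14 and 2273557, 2193737, 4573261 and 2326654 at P28 and changed by 0.17 ± 0.87 (adjusted p = 0.94), and Col2a1 by -0.08 ± 0.73 (adjusted p = 0.968); the direction of both depends on the alternative used. Among 11 fibrillar collagens tested, limma called 0 of 11, edgeR 0 and DESeq2 0, and 1 had an unadjusted p under 0.05. Per kilobase of annotated exon, mean levels were 374967 at P14 and 433004 at P28 for Col1a1, 163541 at P14 and 154642 at P28 for Col2a1, 8959 at P14 and 1400.3 at P28 for Igf2 and 2162 at P14 and 13788 at P28 for Grem1. Fibril-associated and type VI collagens had more calls. Of 11 tested, 4 fell and 1 rose, beside 1.34% and 2.22% of all genes, with a median of -1.14. Col9a1, a cartilage collagen, was at 33343, 13722, 10014 and 13556 at P14 and 5377, 5023, 3620.3 and 3202 at P28 and fell by 1.91 ± 0.44, and Col6a6 fell by 2.45 ± 0.52. Col12a1, a fibril-associated collagen of dense fibrous tissue, was at 36365, 23029, 19540.4 and 19858 at P14 and 12420.0, 8401, 14302 and 9202 at P28 and fell by 1.14 ± 0.25 (adjusted p = 0.0203), with no overlap between the ages. Its call was lost without P14 replicate 1 or P28 replicate 2 (adjusted p up to 0.0656) and without P14 replicates 3 and 4 (-1.42, adjusted p = 0.065). The other called members, Col14a1 and Col22a1, are described above. In the fit lacking P14 replicates 3 and 4, 1 of the 11 fell and 0 rose.

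Small leucine-rich proteoglycans, which bind collagen fibrils, had 2 members lower and 1 higher of 13, against 1.34% and 2.22% of all genes. Omd, osteomodulin, was at 6368, 8306, 2147 and 10898 at P14 and 1459.9, 1523, 773 and 1153 at P28 and fell by 2.32 ± 0.43 (adjusted p = 0.00815), and Epyc fell by 2.97 ± 0.66. Podn rose by 1.04 ± 0.22. In the cartilage-type matrix list, 2 of 18 fell and 1 rose, beside the same shares. Matn1, a cartilage matrilin, was at 248, 224, 11.8 and 66.3 at P14 and 6.36, 16.2, 1.97 and 5.74 at P28 and fell by 3.56 ± 0.86, though its ages overlapped at P14 replicate 3, and Matn4 fell by 2.30 ± 0.49. Vcan, versican, a large proteoglycan of soft and provisional matrix, was at 20875, 37422, 37609 and 33186 at P14 and 168618, 70042, 161038 and 92014 at P28 and rose by 1.87 ± 0.29 (adjusted p = 0.00323). Acan, the aggrecan core protein, and Sox9, the chondrocyte transcription factor, had changes of 0.01 ± 0.41 and 0.06 ± 0.28, with no call.

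Elastic fibre genes had 3 of 17 lower and 1 higher, against 1.34% and 2.22% of all genes. Fbn2, a fibrillin of developing tissue, was at 1391, 1576, 1395 and 1448 at P14 and 730.4, 666, 565 and 673 at P28 and fell by 1.14 ± 0.21 (adjusted p = 0.00824), with the P14 libraries within a narrow range. Efemp1, a fibulin, fell by 2.29 ± 0.51, Mfap2 by 0.66 ± 0.16, and Fbln1 rose by 1.26 ± 0.23. Eln, tropoelastin, changed by 0.37 ± 0.30 with no call. Among 29 genes of collagen processing and crosslinking, 3 fell and 1 rose, beside the same shares. Adamts3, which removes the collagen propeptide, was at 2173, 1556, 1261 and 1616 at P14 and 512, 444, 528 and 673 at P28 and fell by 1.60 ± 0.26, P4ha3, a prolyl hydroxylase subunit, fell by 1.39 ± 0.22 and Tll1 by 2.32 ± 0.41, while Pcolce2, an enhancer of procollagen processing, rose by 1.44 ± 0.34. Among the matrix genes named, Col14a1, Omd, Vcan, Fbn2, Fbln1, Adamts3, P4ha3 and Tll1 kept their call in each fit without 1 library, and Col14a1, Omd, Podn, Matn1, Vcan, Adamts3 and P4ha3 kept it without P14 replicates 3 and 4.

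Matrix proteases and their inhibitors had 6 of 20 members higher and 0 lower, against 2.22% of all genes, 2 of them, Mmp9 and Ctsk, also members of the osteoclast list, with a median of 0.60. Mmp3, stromelysin, was at 103, 143, 92.6 and 76.4 at P14 and 625, 255, 888 and 323 at P28 and rose by 2.18 ± 0.37 (adjusted p = 0.00594). Timp4, a tissue inhibitor of metalloproteinases, was at 43.7, 82.1, 63.04 and 27.4 at P14 and 233, 402, 291 and 176 at P28 and rose by 2.38 ± 0.49. With P14 replicates 3 and 4 left out, limma called 0 of the 20 (5 had an unadjusted p under 0.05), and without 1 library the count was 2 to 9. Among matricellular genes 2 of 19 rose (2.22% of all genes), Tnr and Smoc1. Tnr, tenascin-R, was at 177, 273, 323 and 170.1 at P14 and 784, 1490.3, 1607 and 1863 at P28 and rose by 2.58 ± 0.35 (adjusted p = 0.00154), and kept its call in each fit without 1 library.

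The signalling lists had few calls each. Grem1, gremlin, a secreted antagonist of bone morphogenetic proteins, was at 8118, 10906, 8599 and 8253 at P14 and 65569, 39511, 70006 and 53677 at P28 and rose by 2.65 ± 0.39 (adjusted p = 0.0019). It is on chromosome 2, 113746164 to 113758646, and the P14 libraries lie between 8118 and 10906. Smoc1, a matricellular protein, rose by 1.06 ± 0.22 and Tgfbr3, a co-receptor, by 0.91 ± 0.21. Of the TGF-beta and BMP lists, 2 of 18 antagonists and targets and 1 of 17 receptors and SMADs rose, against 2.22% of all genes; the 2 are Grem1 and Sost. For the 14 ligands limma called 0 of 14, edgeR 0 and DESeq2 0, and 4 had an unadjusted p under 0.05, and Tgfb1 changed by 0.50 ± 0.17 (adjusted p = 0.113).

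Hhip, a decoy receptor and target of hedgehog signalling, was at 1995, 1362, 1184 and 2566 at P14 and 431, 359.9, 188 and 514 at P28 and fell by 2.27 ± 0.31 (adjusted p = 0.00154). Smo, the hedgehog signal transducer, rose by 0.48 ± 0.13, and Gli1 changed by -0.78 ± 0.28 with no call. The call of Smo was lost in each of the 8 limma fits without 1 library (adjusted p = 0.0519 to 0.149), and edgeR did not call it. In the Wnt lists, Sfrp1, a secreted Wnt inhibitor, fell by 1.96 ± 0.27 (adjusted p = 0.00164), Nkd1, a target and inhibitor, by 1.09 ± 0.21 and the receptor Ror1 by 0.96 ± 0.22, whereas Dkk1 and Lrp4 rose as given above. In the FGF list Fgf7 rose by 1.48 ± 0.38 and Etv5, a transcription factor downstream of FGF receptors, by 1.28 ± 0.27, while Fgfr4 fell by 1.38 ± 0.33. Igfbp6, a binding protein that prefers Igf2, was at 44.6, 204, 158 and 128 at P14 and 614, 385, 1172 and 354 at P28 and rose by 2.25 ± 0.48 (adjusted p = 0.0185). For the Notch list, with a median of 0.55, limma called 0 of 15, edgeR 0 and DESeq2 1, and 4 had an unadjusted p under 0.05. Grem1, Hhip, Sfrp1 and Nkd1 kept their call in each fit without 1 library. Grem1, Hhip and Sfrp1 kept it also without P14 replicates 3 and 4, and the calls of Smoc1, Tgfbr3, Smo, Nkd1, Ror1, Fgf7, Etv5, Fgfr4 and Igfbp6 were lost there.

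Part of the clock genes rose. In the molecular clock the activators Arntl (Bmal1) and Clock switch on, through E-boxes, the genes of the repressors and of the PAR bZIP factors Dbp, Tef and Hlf, and Nr1d1 (Rev-erb alpha) and Nr1d2 repress Arntl through ROR elements. Of 19 clock genes tested, 5 rose and 1 fell, against 2.22% and 1.34% of all genes, with a median of 0.35. The other 13 were not called, among them the repressors Per1 (0.44), Per2 (0.10), Per3 (0.46), Cry1 (-0.17) and Cry2 (0.13). With the Gm26917 covariate 2 of the 5 were called higher, and without the pools with little transcript of 1 sex limma called 0 of the 19 (6 had an unadjusted p under 0.05). Dbp was at 199, 313, 296 and 239 at P14 and 468, 991, 1471 and 1231 at P28 and rose by 1.89 ± 0.29 (adjusted p = 0.00267). Nr1d1 was at 1293, 2219, 1724 and 1155 at P14 and 2688, 5081, 6666 and 4939 at P28 and rose by 1.57 ± 0.24 (adjusted p = 0.00295). Hlf was at 131, 149, 156 and 153 at P14 and 347, 256, 548 and 368 at P28 and rose by 1.31 ± 0.19 (adjusted p = 0.0019). Nr1d2 rose by 0.74 ± 0.18 and Tef by 0.71 ± 0.14, both named after their values were seen. Arntl was at 385, 503, 788 and 660.3 at P14 and 392, 302, 249.6 and 180.4 at P28 and fell by 1.06 ± 0.24 (adjusted p = 0.0228), and its ages overlapped. Dbp, Hlf, Nr1d1 and Tef kept their call without any 1 library. When P14 replicates 3 and 4 were left out, Dbp and Hlf kept it (1.94 and 1.38) and the others did not. The time of day of collection is not given in the labels, so age and time of day cannot be told apart.

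The windows of 250 bases before to 50 after a gene start were taken from RefSeq (GRCm38.p6) to show the elements named for 2 of these genes. The E-box was searched as CACGTG and the ROR element as TAGGTCA, each on both strands. The E-box is in 7.15% of 32851 windows and the ROR element in 2.61%. Of the 16 clock genes with a window, 5 hold an E-box (Bhlhe41, Ciart, Cry1, Per1 and Tef) and 2 hold a ROR element (Arntl and Nfil3). Among these, Tef and Arntl were called, and Bhlhe41, Ciart, Cry1, Per1 and Nfil3 were not. A gene was counted if any of its windows matched, whereas the percentages are of single windows, so the 2 are not on the same scale. The windows of Dbp, Hlf, Nr1d1 and Nr1d2 held no CACGTG, which says only that these letters are not in that window. The Tef window, chr15:81802423-81802722 on the plus strand, has its match in capitals, starting 127 bases before the start.
Tef: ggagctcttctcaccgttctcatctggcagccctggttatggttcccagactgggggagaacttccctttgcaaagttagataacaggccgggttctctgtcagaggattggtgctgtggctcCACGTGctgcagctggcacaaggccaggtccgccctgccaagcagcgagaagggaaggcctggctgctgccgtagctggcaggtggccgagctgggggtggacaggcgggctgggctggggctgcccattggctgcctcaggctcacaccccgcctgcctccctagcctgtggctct
The Arntl window, chr7:113207261-113207560 on the plus strand, has its match 30 bases after the start.
Arntl: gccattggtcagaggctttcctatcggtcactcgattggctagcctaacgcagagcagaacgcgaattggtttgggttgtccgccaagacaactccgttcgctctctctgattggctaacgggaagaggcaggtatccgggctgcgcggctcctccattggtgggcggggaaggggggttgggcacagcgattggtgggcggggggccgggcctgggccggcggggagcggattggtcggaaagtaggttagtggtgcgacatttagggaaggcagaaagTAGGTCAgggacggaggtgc
The match in Arntl stands beside a fall of 1.06 and the match in Tef beside a rise of 0.71 on the log2 scale, and no binding was measured.

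**Figure D4:**
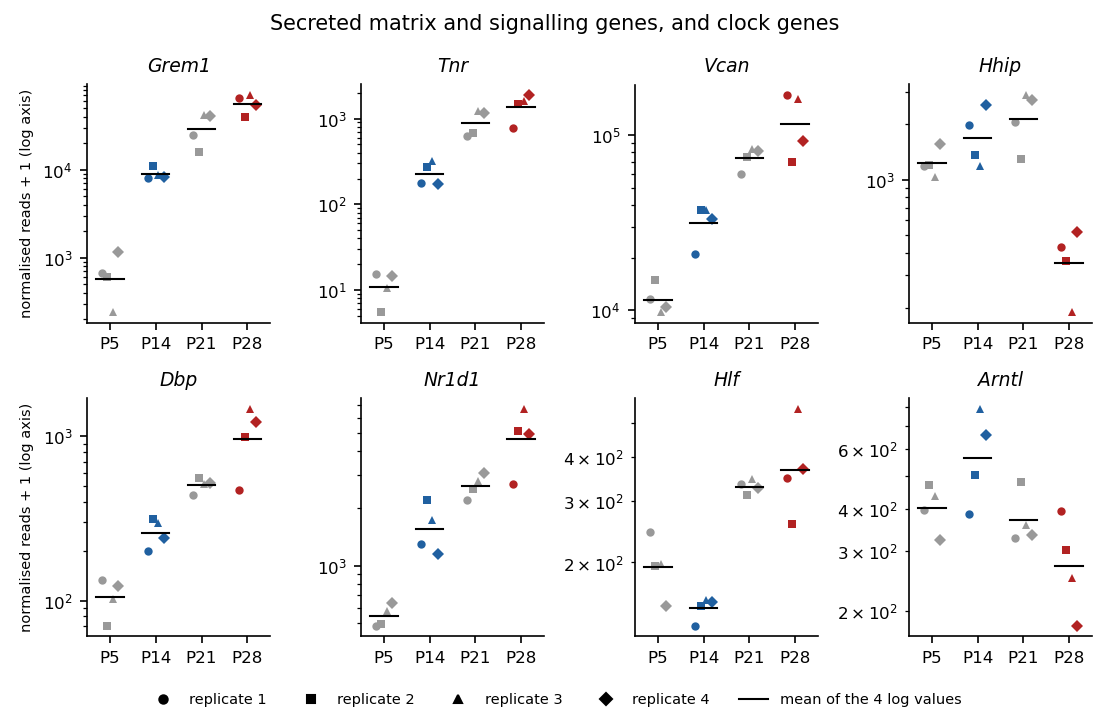
Normalised reads + 1 on a log axis for 8 genes at P5, P14, P21 and P28; each symbol is a library, its shape the replicate, and the bar the mean of the 4 log values. Grem1, Tnr, Vcan, Dbp, Nr1d1 and Hlf are higher at P28 (red) than in all P14 libraries (blue), Hhip is lower, and for Arntl the ages overlap.

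Antigen presentation and interferon lists had 2 increases each. Tapbp, tapasin, which loads peptide on class I molecules, was at 851, 844, 529.9 and 675 at P14 and 2753, 2129.9, 2288 and 1971 at P28 and rose by 1.67 ± 0.19 (adjusted p = 0.00049), and 29.02% of its exon bases also belong to Gm19412. H2-D1, a class I heavy chain, was at 453, 668, 475 and 443 at P14 and 1277, 1032, 1240.0 and 835 at P28 and rose by 1.10 ± 0.22. Beside 2.22% of all genes, 2 of 16 genes of the list rose (median 0.73), and of 21 interferon response genes 2 rose, Gbp3 by 2.23 ± 0.50 and Irf9 by 0.87 ± 0.22, with a median of 0.87 and 13 at an unadjusted p under 0.05. Gbp3, a guanylate-binding protein, was at 16.4, 8.29, 5.91 and 8.65 at P14 and 69.95, 92.3, 23.7 and 31.2 at P28. The interferon-stimulated response element was searched as GAAA, any 2 bases and GAAA on both strands, and is in 3.44% of all windows. Of 18 listed interferon genes with a window, 9 hold it in any window, among them Oas1a, which was not tested. That count of genes is not on the scale of the share of windows. The window of Gbp3, chr3:142559794-142560093 on the plus strand, holds 2 overlapping matches on the minus strand, in capitals, starting 45 bases before the start.
Gbp3: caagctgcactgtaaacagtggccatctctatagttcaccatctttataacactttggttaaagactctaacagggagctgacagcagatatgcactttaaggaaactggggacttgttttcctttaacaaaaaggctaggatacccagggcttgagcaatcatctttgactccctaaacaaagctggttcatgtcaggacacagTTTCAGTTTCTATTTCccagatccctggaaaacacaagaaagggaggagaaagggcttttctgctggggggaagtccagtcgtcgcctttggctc
No binding was measured, and the calls of Gbp3 (adjusted p up to 0.0806 without 1 library), Irf9 and H2-D1 were lost without P14 replicates 3 and 4, while Tapbp kept its call.

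Cell cycle and metabolic genes had few calls. Among 27 G2/M genes, with a median of -0.57 and 26 negative values, limma called 0 of 27, edgeR 0 and DESeq2 0, and 5 had an unadjusted p under 0.05. Without the pools with little transcript of 1 sex, 21 had a limma unadjusted p under 0.05 and 0 were called (median -1.19). With the Gm26917 covariate 2 had such a p (median -0.67). Mki67 was at 2804, 2257, 1263 and 1905 at P14 and 1041, 1481, 697 and 2690.3 at P28 and changed by -0.60 ± 0.38, and Top2a by -0.70 ± 0.39. For Mki67, P28 replicates 2 and 4 lay within the range of the P14 libraries, and for Top2a at least replicate 4 did. Among 28 S-phase genes 1 fell, Ung, a uracil glycosylase (-1.13 ± 0.28). Of 21 cholesterol synthesis genes 1 fell, Pmvk (-0.97 ± 0.25), and 20 of the 21 changes were negative. The share of all genes that fell was 1.34%, and both calls were lost in each of the 8 fits without 1 library (adjusted p = 0.0554 to 0.0971 for Ung and 0.0631 to 0.12 for Pmvk). Over all libraries 8 cholesterol synthesis genes had a limma unadjusted p under 0.05 (median -0.55). Without P14 replicates 3 and 4 there were 15 (median -0.98), and with the Gm26917 covariate 18 (median -1.05), with 0 called in either fit. Of 27 genes of glycolysis and hypoxia 1 rose (2.22% of all genes), Ndrg1, a stress-responsive gene that was at 416, 619, 512 and 624 at P14 and 1865, 1198, 1604 and 1022 at P28 (1.37 ± 0.23, adjusted p = 0.00509). For nuclear oxidative phosphorylation limma called 0 of 35, edgeR 0 and DESeq2 0, and 2 had an unadjusted p under 0.05, and for ribosomal proteins limma called 0 of 34, edgeR 0 and DESeq2 0, and 0 had an unadjusted p under 0.05. For the 13 mitochondrially encoded genes, whose median was -1.34 and -0.23 without P14 replicates 3 and 4, limma called 0 of 13, edgeR 0 and DESeq2 13, and 12 had an unadjusted p under 0.05.

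**Figure D5:**
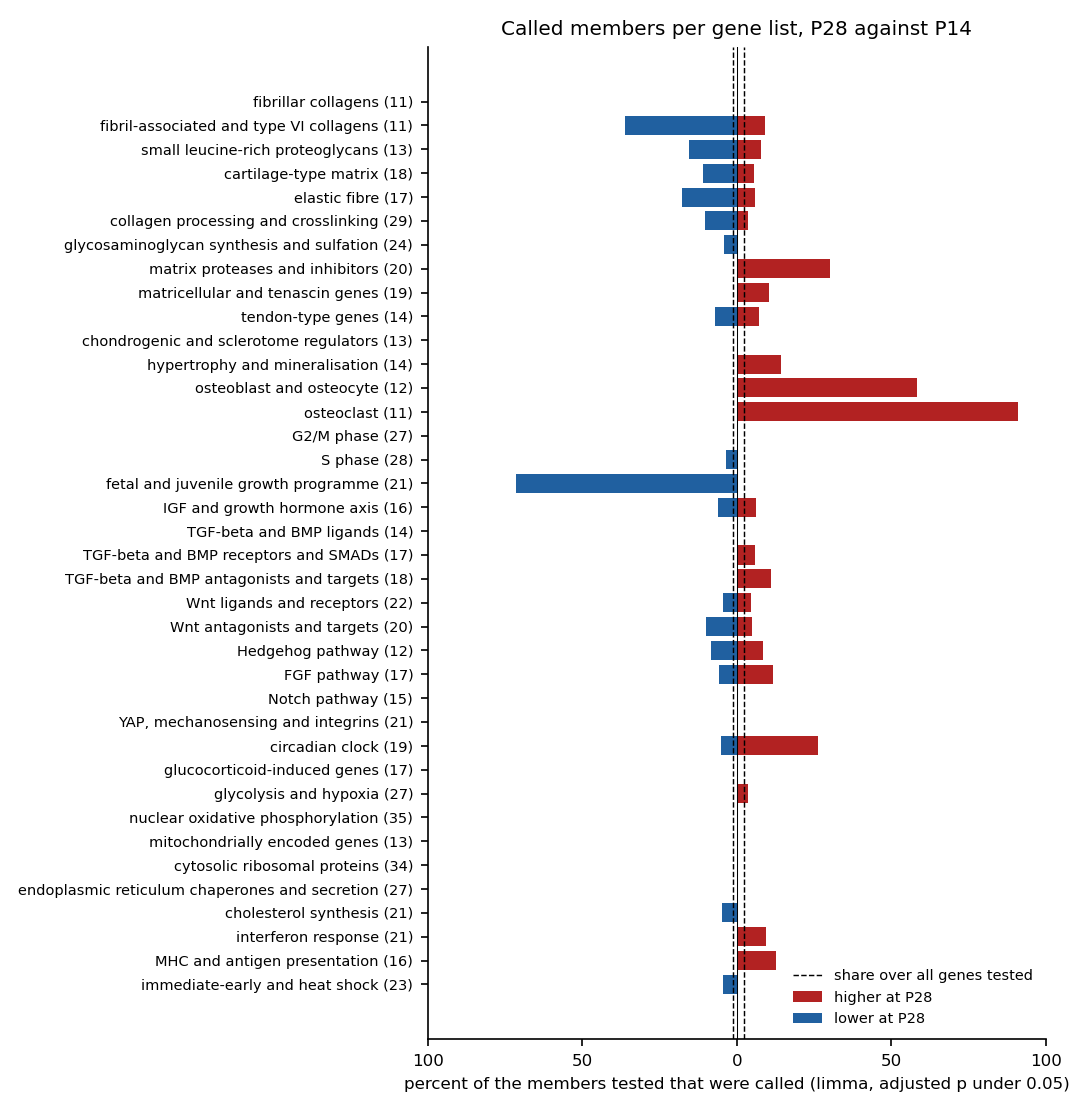
Percent of the tested members of each gene list, cell type lists left out, called higher (right, red) or lower (left, blue) at P28. The number tested is in parentheses, and dashed lines mark the shares over all genes tested (2.22% and 1.34%). The osteoclast list (10 of 11) and the osteoblast and osteocyte list (7 of 12) reach farthest to the right and the growth list (15 of 21) farthest to the left; the lists overlap in places.

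Marker lists of other cell types had few calls, and their summed levels varied within ages. Skeletal muscle markers were at 386, 221, 2774 and 4485 normalised reads at P14 and 3863, 269.6, 341 and 25473 at P28, and limma called 0 of 14, edgeR 0 and DESeq2 0, and 0 had an unadjusted p under 0.05. Nerve markers were highest in P14 replicate 2, at 1038, and limma called 0 of 12, edgeR 0 and DESeq2 0, and 1 had an unadjusted p under 0.05. For nucleus pulposus markers, of which Shh, Noto and Krt15 were not among the genes tested, limma called 0 of 9, edgeR 0 and DESeq2 1, and 2 had an unadjusted p under 0.05. Of 12 pericyte and smooth muscle genes 2 rose (2.22% of all genes), Abcc9 (1.90 ± 0.42) and Pdgfrb (0.59 ± 0.13). Of 7 mast cell genes 1 fell (1.34% of all genes), Tpsb2 (-2.76 ± 0.67), and 2 changes were positive. Mast cell sums were 71.0, 77.1, 201 and 209 at P14 and 75.5 to 166 at P28. The mast cell median was -2.01, and -0.45 without P14 replicates 3 and 4, where limma called 0 of either list. The calls of Abcc9, Pdgfrb and Tpsb2 were each lost in 5 of the 8 fits without 1 library. In the tendon list, 1 of 14 rose, Ptgis (0.85 ± 0.20), and 1 fell, the Col14a1 described above, against 2.22% and 1.34% of all genes, and in the annulus and fibrous tissue list 1 of 10 fell, Col12a1. Of the other members, Mkx changed by 0.40 ± 0.20, Scx by -0.71 ± 0.62 and Tnmd by 0.53 ± 0.37, with no call for these 3.

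The P21 libraries, not part of the comparison, lay between the 2 ages for most called genes. On a scale where the P14 mean log2 value is 0 and the P28 mean is 1, the median P21 position was 0.53 for the 390 genes that rose and 0.63 for the 235 that fell. Among the genes that rose, 161 were nearer P14 at P21 and 185 nearer P28, 15 lay beyond P14 and 29 beyond P28. Among those that fell, 60 were nearer P14 and 126 nearer P28, and 17 and 32 beyond P14 and P28. The called osteoclast genes had a median P21 position of 0.18 and the called osteoblast and osteocyte genes of 0.17, but over P21 replicates 3 and 4 alone these were -0.0076 and -0.0082, at the P14 level. P21 replicates 1 and 2 also stood apart in Snap25, at 840.1 and 748 against 44.8 and 35.7 in replicates 3 and 4. Over replicates 3 and 4 the median position of all genes that rose was 0.63 and of all that fell 0.74. Acp5 was at 1119, 111, 142 and 144 at P21, where replicate 1 stood apart, and Dmp1 at 179, 34.1, 49.3 and 32.6. Hhip, which fell by P28, was at 2070.4, 1288, 2881 and 2715 at P21, 2 of these libraries within the P14 range and 2 above it. Grem1 was at 24678, 15977, 41772 and 41142 and H19 at 18777, 9491, 4161 and 5604. Over the 390 genes that rose, the median of the mean log2 values was 7.13, 7.36, 8.01 and 8.55 at P5, P14, P21 and P28, and over the 235 that fell it was 8.54, 8.05, 7.25 and 6.73. These positions are descriptions, since the calls fix their P14 and P28 ends.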

How the data were processed

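Pools of tail annulus fibrosus from mice at P14 (n = 4) and P28 (n = 4) were compared, with the P5 and P21 libraries in the fit. Per the submitters' processing notes, the tools were bcl2fastq 2.20, Trimmomatic 0.36, STAR 2.5.2b, featureCounts in Subread 1.5.2 and DESeq2, with build GRCm38. The strand setting is not given in the sources used here. The deposited signal values are read counts scaled by the authors with library size factors. Whole reads were recovered within 0.001 for 100% of the values, which gave the reads per library. The lowest gene mean was 8.00, so low genes are missing by a rule that is not given in the sources used here.

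Symbols came from GENCODE vM21, which held 17677 of 17724 identifiers. Genes whose mean over the 16 libraries reached 10 were tested with limma 3.58.1 in R 4.3.3 on log2(value + 1), with a trended prior (prior degrees of freedom 4.16, residual 12), two-sided, Benjamini-Hochberg adjusted over 17577 genes at 0.05. On simulated data limma recovered 50% of genes changed 2-fold and 88% of genes changed 4-fold, with 12 false calls. These figures hold for the simulated counts only. They do not measure false calls in the real libraries, which differed in more than age and where many calls were lost when libraries were left out. edgeR 4.0.16 and DESeq2 1.42.0 were run on the recovered reads, and DESeq2 gave no adjusted p for 344 genes. Other alternatives were pseudocounts 0.5 and 8, other filters and scalings, robust limma, a replicate block, the 8 libraries alone, a Gm26917 covariate and fits without libraries.

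Named genes were the 15 largest increases and 15 largest decreases among called genes that averaged 100 or more at the higher age without overlap between ages, leaving out predicted genes, pseudogenes and some RNA classes, up to 4 called members per list (2 of the highest mean if none was called) and a set of followed genes. Tef, Nr1d2 and the further members listed for the growth, osteoclast, osteoblast and clock lists were named after their values were seen. The members, lists and rule were chosen with earlier results of these data known. The labels do not say whether replicate numbers pair the pools, and the numbers were treated as names. The correlations of same-numbered P14 and P28 deviations were 0.086, 0.076, 0.107 and 0.208. They were the highest of their P28 library for replicates 3 and 4 and not for replicates 1 and 2. So few values cannot decide whether pools were paired. Promoter and microRNA sequences are from RefSeq (GRCm38.p6). A gene that the naming rule selects is not reported here.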

Additional observations from a re-analysis of the deposited data

Results flagged for a closer look

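In 16 of the 214 groups of 4 libraries examined (7.48%), 1 library stood apart from the other 3 of its age by Dixon's test on unlogged normalised reads. The test flags about 1 in 20 groups drawn from a normal spread, which unlogged reads need not have. The 7.48% therefore cannot be read against that rate. P14 replicate 2 was that library in 5 cases and P28 replicate 1 in 4. Sost was at 18.2 normalised reads in P14 replicate 2, above the other 3 libraries of that age at 0 to 1.82. Ocstamp was at 188 normalised reads in P28 replicate 1, above the other 3 libraries of that age at 92.7 to 106. Ptprz1 was at 82.9 normalised reads in P14 replicate 2, above the other 3 libraries of that age at 5.46 to 15.9. Atp6v0d2 was at 546 normalised reads in P28 replicate 1, above the other 3 libraries of that age at 316 to 326. Megf6 was at 400.5 normalised reads in P14 replicate 1, above the other 3 libraries of that age at 93.7 to 136. Dcstamp was at 123 normalised reads in P28 replicate 1, above the other 3 libraries of that age at 56.6 to 63.4. Magel2 was at 31.8 normalised reads in P28 replicate 1, above the other 3 libraries of that age at 0 to 4.72. Col9a1 was at 33343 normalised reads in P14 replicate 1, above the other 3 libraries of that age at 10014 to 13722. Mfap2 was at 893 normalised reads in P28 replicate 3, above the other 3 libraries of that age at 557 to 592. Slc35d1 was at 1253 normalised reads in P14 replicate 1, above the other 3 libraries of that age at 565 to 648. H2-D1 was at 668 normalised reads in P14 replicate 2, above the other 3 libraries of that age at 443 to 475. Klf2 was at 1299 normalised reads in P14 replicate 2, below the other 3 libraries of that age at 1528 to 1556. Col1a1 was at 4573261 normalised reads in P28 replicate 3, above the other 3 libraries of that age at 2193737 to 2326654. Col1a2 was at 1482746 normalised reads in P28 replicate 3, above the other 3 libraries of that age at 695487 to 757451. Snap25 was at 269 normalised reads in P14 replicate 2, above the other 3 libraries of that age at 1.44 to 7.88. Snap25 was at 31.99 normalised reads in P28 replicate 4, above the other 3 libraries of that age at 0 to 0.674.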

How the results depend on the processing

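Other pseudocounts, no filter, a minimum mean of 50, upper-quartile and quantile scaling, TMM factors, robust limma, the 8 libraries alone and edgeR each gave 350 to 482 higher and 215 to 272 lower genes. Rescaling to the same total gave 140 lower genes. The replicate block gave 366 higher and 233 lower genes; not every library correlated best with its own number. Without 1 library there were 129 to 462 higher and 85 to 262 lower genes. Without P14 replicates 3 and 4 there were 29 and 40, without the pools of mostly 1 sex 18 and 27, with the Gm26917 covariate 35 and 47, and DESeq2 called 753 and 572. Without P14 replicate 2 and P21 replicates 1 and 2 there were 741 and 580. The fits without libraries hold fewer samples, and the counts rose in some of them and fell in others. The cause of these differences was not tested. The uncalled genes that changed sign were Col1a1, Col1a2, Col2a1, Acan and Sox9. Col1a1 was at 0.0 with quantile normalization and -0.19 with the covariate, and at -0.088 to 0.32 without 1 library. Col1a2 was at -0.15 with the covariate. Col2a1 was at 0.32 with quantile normalization and 0.013 without P14 replicate 2 and P21 replicates 1 and 2, and at -0.20 to 0.013 without 1 library. Acan was at -0.040 with upper-quartile scaling, -0.063 with edgeR, -0.062 with DESeq2, -0.47 without P14 replicates 3 and 4, -0.41 without the 1-sex pools and -0.69 with the covariate, and at -0.21 to 0.20 without 1 library. Sox9 was at -0.081, -0.17 and -0.35 in the last 3 of these, and at -0.086 to 0.21 without 1 library. Depth of 10549937 reads in the shallowest P14 library limits genes of few reads.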

Other observations

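Further called genes were not described above. Slc9b2, a sodium and proton exchanger known from osteoclasts, was at 20.02, 47.3, 3.94 and 2.88 at P14 and 268, 144, 128 and 155 at P28 and rose by 3.82 ± 0.76 (adjusted p = 0.0138). Cyp1b1, a cytochrome P450, was at 27.3, 25.7, 9.85 and 11.5 at P14 and 174, 244, 111 and 91.9 at P28 and rose by 3.02 ± 0.67. Slc15a2, a peptide transporter, was at 29.1, 35.7, 7.88 and 5.77 at P14 and 185, 131, 113 and 95.96 at P28 and rose by 3.00 ± 0.51 (adjusted p = 0.0059). Ptgis, prostacyclin synthase, was at 1496, 2428, 2193 and 1765 at P14 and 3265, 3510.3, 4962 and 2629 at P28, and Ank, a transporter of pyrophosphate, rose by 0.74 ± 0.16. Klf2, a transcription factor induced by flow, fell by 0.58 ± 0.14. Spp1, osteopontin, was at 9280.2, 19886, 3469 and 5013 at P14 and 44645, 32006, 41304 and 19658 at P28 and rose by 2.12 ± 0.52, with overlapping ages. Of these, Slc15a2 kept its call in every fit without 1 library, and all 7 lost their call without P14 replicates 3 and 4.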
